A study of Mus musculus with 6 samples.

Results

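The genes described here are 10 components of the Notch pathway: the receptors Notch1, Notch2 and Notch3, the ligands Jag1, Jag2 and Dll1, and the transcriptional targets Hes1, Hey1, Hey2 and Heyl. They were chosen by symbol, and all 10 of the 10 were found among the 25899 genes of the deposited table. The tissue was the apical part of mouse mandibular first molars, labelled as dental mesenchyme and taken 7.5 days after birth. The 3 mutant libraries came from Gli1-CreER;Bmpr1afl/fl mice and the 3 control libraries from littermate Bmpr1afl/fl mice, so both groups carried the floxed alleles of Bmpr1a, which encodes a receptor for BMPs (bone morphogenetic proteins). Gli1-CreER is a tamoxifen-dependent recombinase made in Gli1-expressing cells, and recombination is therefore limited to those cells and their descendants; the labels give no tamoxifen schedule. The strain was a mixed C57Bl6/129S6/SvEvTac background. By the littermate labels, control 3 and mutant 3 formed litter 2, and the other 4 libraries (numbers 1 and 2 of each genotype) formed litter 1. The series' design text gives the role of BMP signalling in tooth morphogenesis as the question.

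Notch receptors are single-pass membrane proteins that bind Jagged or Delta-like ligands on a neighbouring cell. Binding lets ADAM proteases and then gamma-secretase cut the receptor, and the freed intracellular domain joins the DNA-binding protein Rbpj to switch on Hes and Hey genes, which encode basic helix-loop-helix repressors. In teeth the pathway is known from the enamel epithelium, where Notch1 marks the stratum intermedium and Jag2 the inner enamel epithelium, from odontoblasts, and from vessels, where Notch3 and Heyl mark mural cells.

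The libraries held between 15916045 and 20609420 reads on genes, and values are given as RPM, reads per 1000000 mapped reads. A level of 3 reads was between 0.0987 and 0.126 RPM. All 10 members reached the mean of 1 RPM required for testing. For the targeted gene, Bmpr1a, the 3 controls read 121, 139 and 149.5 RPM and the 3 mutants 108, 120.2 and 111 RPM, each in the order 1 to 3. Those groups did not overlap, but the change had an unadjusted p of 0.0910 by limma; which exon is deleted is not given in the labels, and reads from undeleted exons and unrecombined cells are counted too. The labelled tissue was checked against markers: all 8 listed dental mesenchyme genes, among them Msx1 and Barx1, were detected in every library. Although the label names mesenchyme, the 11 listed enamel epithelium genes were detected as well and summed to between 2339 and 49721 RPM. In such bulk samples, fewer cells of a type and less RNA per cell cannot be told apart.

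Per length of the principal transcript, the target Hey1 stood highest of the 10 members in controls, at 71.0 ± 31.1 RPM per kb (SD, n = 3). Hes1 followed at 29.9 ± 4.15 RPM per kb and Notch2 at 27.3 ± 3.72 RPM per kb. The ranges of Hey1 and Hes1 did not overlap in controls, and Hey1 lay above Hes1 in 5 of 6 libraries. Hes1 and Notch2 overlapped in controls, although Hes1 lay above Notch2 in 6 of 6 libraries, and with the length of all annotated exons in place of the principal transcript Notch2 came ahead of Hes1. Notch3 was next at 15.3 ± 9.72 RPM per kb, and its range stayed below that of Notch2. Jag2 (12.7 ± 5.70 RPM per kb), Jag1 (9.80 ± 1.89 RPM per kb), Dll1 (9.74 ± 6.69 RPM per kb), Notch1 (8.53 ± 3.504 RPM per kb) and Heyl (7.21 ± 3.57 RPM per kb) overlapped from each to the next, as did Notch3 with Jag2. Hey2 stood lowest at 1.09 ± 0.507 RPM per kb, below Heyl in 6 of 6 libraries.

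The principal transcripts ran from 1.468 kb for Hes1 to 10.5 kb for Notch2. In the GENCODE M21 annotation of GRCm38, Notch1 lies on chromosome 2 at 26457903 to 26516663 (minus strand) and Jag1 on the same chromosome at 137081456 to 137116644 (minus strand). Notch2 spans 98013527 to 98150361 on chromosome 3 (plus strand), where Hey1 spans 8663359 to 8667256 (minus strand). Notch3 lies at 32120820 to 32166852 and Dll1 at 15367354 to 15376872, both on the minus strand of chromosome 17. Jag2 is on chromosome 12 at 112907819 to 112929776 (minus strand), Hes1 on chromosome 16 at 30064384 to 30067796 (plus strand), Hey2 on chromosome 10 at 30832359 to 30842801 (minus strand), and Heyl on chromosome 4 at 123233556 to 123249875 (plus strand). All 10 are protein-coding genes.

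Promoter sequence was searched for the pathway's own binding letters because Notch3, Dll1 and the Hey genes were lower in litter 2, as described further on. RefSeq promoter windows of GRCm38.p6, from 250 bases before to 10 bases after a gene's start, were matched for 7 of the 10 members (8 windows, Dll1 having 2); Hes1, Hey1 and Heyl were not matched. The core letters bound by Rbpj, GTGGGAA, were searched on both strands. They occurred in 5.58% of all 32851 windows and in 1 of the 8 member windows, that of Hey2. The letters CACGCG, to which Hes proteins are known to bind, were also searched on both strands and overlapped no GTGGGAA match in these windows. They occurred in 7.97% of all windows and in those of Jag1, Notch2 and 1 of the 2 of Dll1. The windows of Hey2, Dll1 and Notch3 are shown 5′ to 3′ with matches in capitals, since these are the matched members whose litter difference is the subject of the later results. Hey2 is read from chr10:30842774-30843033 (minus strand), Dll1 from chr17:15376923-15377182 (minus strand) and Notch3 from chr17:32166881-32167140 (minus strand).
Hey2: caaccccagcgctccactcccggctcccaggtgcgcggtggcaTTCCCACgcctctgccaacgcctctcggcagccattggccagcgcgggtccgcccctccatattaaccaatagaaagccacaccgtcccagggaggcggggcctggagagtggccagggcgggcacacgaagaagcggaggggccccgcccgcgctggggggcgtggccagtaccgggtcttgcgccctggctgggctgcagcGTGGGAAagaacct
Dll1: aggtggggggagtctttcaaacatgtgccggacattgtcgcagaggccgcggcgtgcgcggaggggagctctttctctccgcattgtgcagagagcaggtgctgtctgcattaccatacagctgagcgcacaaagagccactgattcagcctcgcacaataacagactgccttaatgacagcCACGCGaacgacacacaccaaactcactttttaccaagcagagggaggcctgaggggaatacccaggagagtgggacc
Notch3: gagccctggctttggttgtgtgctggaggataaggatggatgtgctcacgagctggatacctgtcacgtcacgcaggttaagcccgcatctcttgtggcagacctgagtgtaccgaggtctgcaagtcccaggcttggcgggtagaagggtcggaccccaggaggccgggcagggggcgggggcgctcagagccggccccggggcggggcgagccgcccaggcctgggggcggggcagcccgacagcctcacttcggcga
In the Hey2 window the matches begin at positions -207 (TTCCCAC, the reverse strand) and -4 (GTGGGAA), counted from -1 at the base before the start. The Dll1 match, CACGCG, begins at -68. The Notch3 window held neither set of letters. A match is a run of letters and not evidence of binding.

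Of the receptors, Notch1 had levels of 119, 65.5 and 58.2 RPM in the controls and 113, 95.5 and 119 RPM in the mutants, given here and hereafter in the order 1, 2, 3. Control 1 was the highest of the 6 libraries, while the other 2 controls lay below all 3 mutants. The mutant mean less the control mean, as log2(RPM + 1), is called the change. For Notch1 it was 0.49 (SE 0.27; limma, unadjusted p 0.108, Benjamini-Hochberg adjusted p 1.00). It was 0.23 within litter 1 and 1.018 within litter 2. The size of this difference rested on single controls. Without control 1 the change was 0.81, with an unadjusted p of 0.00336 and an adjusted p of 1.00 by limma. Without control 3 it was 0.30, with an unadjusted p of 0.302 by limma.

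Notch2 was the least variable member. It was at 330.5, 276 and 255 RPM in controls and at 298, 248 and 315.5 RPM in mutants, and the groups overlapped throughout. Its change of 0.0027 (SE 0.18, unadjusted p 0.988 by limma) had a 95% interval from 0.749-fold to 1.34-fold. Notch3 was at 161, 174 and 33.2 RPM in controls and at 115, 167 and 55.6 RPM in mutants. The libraries of litter 2 were the lowest of each group, and the genotypes overlapped. The Notch3 change was 0.06 (SE 0.68, unadjusted p 0.932 by limma), with an interval as wide as 0.345-fold to 3.15-fold.

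Of the ligands, Jag1 was at 67.2, 48.4 and 49.4 RPM in controls and at 76.1, 50.0 and 59.9 RPM in mutants, a change of 0.17 (SE 0.20). Its groups overlapped. Jag2 was at 66.3, 35.1 and 93.2 RPM in controls and at 111, 49.6 and 79.95 RPM in mutants, a change of 0.33 (SE 0.41). The 2 extremes came from litter 1, control 2 at the bottom and mutant 1 at the top. Dll1, the Delta-like ligand, was at 35.1, 58.7 and 10.8 RPM in controls and at 29.0, 51.2 and 12.03 RPM in mutants. Its groups overlapped, with the litter 2 library lowest in each, and the change was -0.11 (SE 0.68). By limma the unadjusted p was 0.44 for Jag1, 0.436 for Jag2 and 0.879 for Dll1, and the Dll1 interval ran from 0.304-fold to 2.83-fold.

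Of the targets, Hes1, which encodes a repressor switched on by Notch in many tissues, was at 50.9, 40.1 and 40.6 RPM in controls and at 56.2, 46.6 and 58.0 RPM in mutants. Control 1 lay above mutant 2, so the groups overlapped. The change was 0.28 (SE 0.15, unadjusted p 0.108 by limma), with an interval from 0.946-fold to 1.57-fold. Hey1, a Hes-related repressor also known as a BMP-responsive gene, was at 174, 246 and 95.6 RPM in controls and at 138.5, 258.5 and 76.6 RPM in mutants. The library of litter 2 was the lowest of each genotype, and the genotypes overlapped. The Hey1 change was -0.19 (SE 0.49, unadjusted p 0.707 by limma).

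Heyl, the Hey family member known from mural cells, was at 49.0, 32.5 and 16.7 RPM in controls and at 32.2, 40.9 and 13.95 RPM in mutants, a change of -0.17 (SE 0.48). The groups overlapped, and the litter 2 libraries were the lowest of each. Hey2, the low family member, was at 3.72, 3.32 and 1.31 RPM in controls and at 3.06, 2.76 and 2.43 RPM in mutants, a change of 0.05 (SE 0.30). Control 3 stood lowest, and all 3 mutants lay within the range of the controls. Within litter 1 both mutants lay below both controls, and in litter 2 the mutant lay above its control. Of the 10 members, 1 (Hey2) had such opposite directions, against 18.2% of genes, and 1 (Notch3, unadjusted p 0.0344) had a litter-by-genotype term under 0.05 by limma, against 5.06% of genes. By limma the unadjusted p was 0.734 for Heyl and 0.869 for Hey2.

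**Figure D1:**
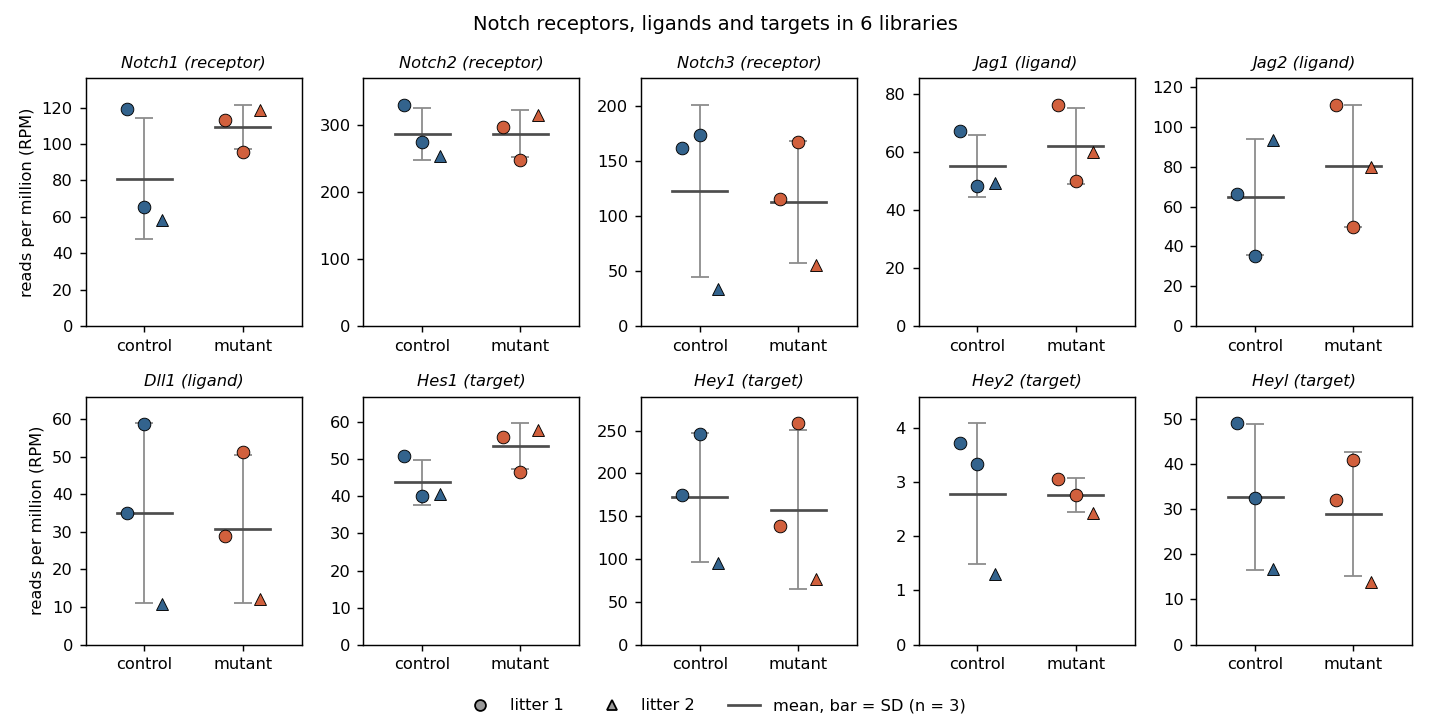
Level of each member in RPM (vertical axis, from 0) in the 3 control and 3 mutant libraries; circles are litter 1, triangles litter 2, horizontal lines means and bars SD. The genotypes overlap in every panel, and the triangles lie lowest in both groups for Notch3, Dll1, Hey1, Hey2 and Heyl.

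Between genotypes, 0 of the 10 members had an adjusted p under 0.05 by limma, against 0.0% of the 14444 genes tested, and the same number, 0, had an unadjusted p under 0.05, against 1.05% of genes (0.36% higher and 0.692% lower in mutants). The genotypes failed to overlap for 0 of 10 members and for 2.64% of all genes. In direction, 7 members were higher and 3 lower in mutants, with 45.6% of all genes higher. With a library left out or in litter 1 alone, the number lower ran from 1 to 6. The median change of the members was 0.06, and that of all genes tested was -0.01. Without control 1, 1 member, Notch1, had an unadjusted p under 0.05 by limma. So did 325 of the 14444 genes tested, and 1 gene of the whole table passed adjustment.

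These tests bound the changes unequally. Intervals were narrow for Notch2, Hes1 and Jag1, where changes beyond 1.34-fold, 1.57-fold and 1.56-fold upward lay outside them. For Dll1 and Notch3 the limits were wider, at 2.83-fold and 3.15-fold upward, in this fit without a litter term. With litter as a block the SE of the change was 0.28 in place of 0.68 for Dll1 and 0.25 in place of 0.68 for Notch3, and neither gene passed the test.

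The members of largest spread over the 6 libraries, Dll1, Notch3, Hey1 and Heyl, separated by litter, a comparison added after the values had been seen. Jag2 and Notch1 (SD of log2(RPM + 1) 0.60 and 0.45) varied more than Hey2 (0.37) but did not separate. In both libraries of litter 2, Notch3, Dll1, Hey1, Hey2 and Heyl were below all 4 libraries of litter 1, that is, 5 of 10 members, against 20.5% of all genes tested; 15.0% of genes lay above and 0 members did. Dll1 averaged 43.5 RPM in litter 1 and 11.4 RPM in litter 2, a ratio of 3.80. For Notch3 the means were 154 and 44.4 RPM, a ratio of 3.48. Heyl averaged 38.6 and 15.3 RPM and Hey1 204 and 86.1 RPM. The remaining receptors Notch1 and Notch2, the Jagged ligands and Hes1 did not separate by litter.

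A limma fit with litter beside genotype gave a litter 2 minus litter 1 change of -1.80 for Notch3 (SE 0.26, unadjusted p 0.000323, adjusted p 0.0478). For Dll1 it was -1.79 (SE 0.29, adjusted p 0.0540 by limma), for Heyl -1.26 (SE 0.20, adjusted p 0.0517 by limma) and for Hey1 -1.20 (SE 0.28, adjusted p 0.0997 by limma). For Hey2 it was smallest of the 5, at -0.58 (SE 0.23, unadjusted p 0.0447, adjusted p 0.229 by limma). Hey2 rested most on control 3, without which it was -0.19 (unadjusted p 0.529 by limma); it was under 0.05 in 7 of 14 alternatives. So 1 of 10 members passed adjustment, against 0.872% of all genes (0.831% lower in litter 2), and 5 had an unadjusted p under 0.05 in the direction of lower in litter 2, against 13.7% of genes (20.9% in either direction). The Notch3 call lay close to the threshold and was kept in 4 of 15 alternatives, with adjusted p from 0.0445 to 0.207. Leaving out any 1 of controls 1, 2 and 3 or mutants 2 and 3 ended it, with adjusted p of 0.0582, 0.0677, 0.207, 0.198 and 0.0617 by limma; the direction stayed in all 15.

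**Figure D2:**
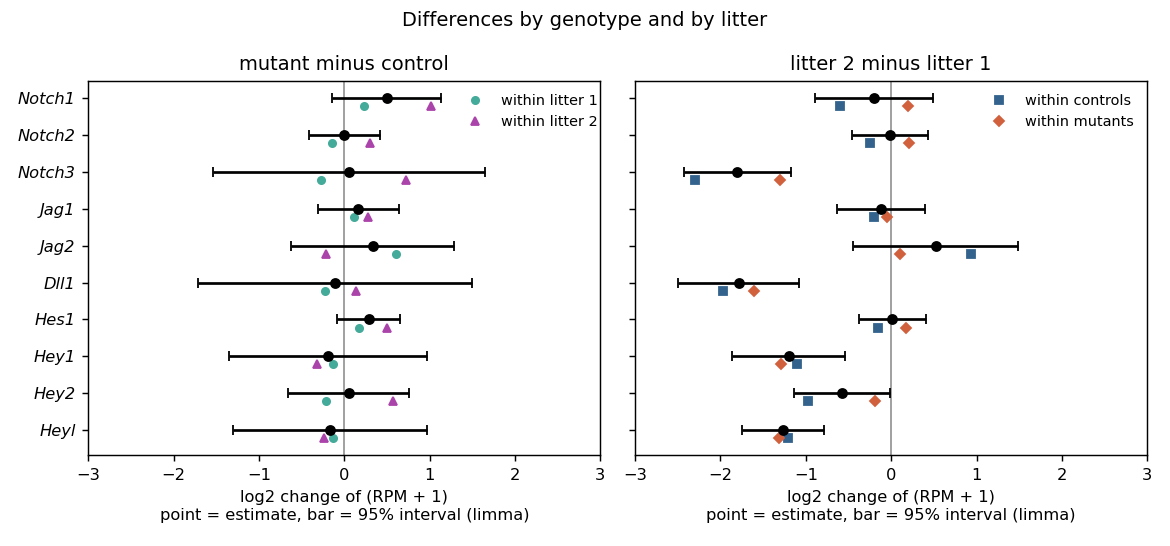
Change of each member on the log2(RPM + 1) scale (horizontal axes) by genotype at left and by litter at right, with 95% intervals from limma as bars; small symbols give the change within each litter or genotype. Every genotype interval crosses 0, and Notch3, Dll1, Hey1, Hey2 and Heyl lie below 0 by litter, at -1.80, -1.79, -1.20, -0.58 and -1.26.

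The litter difference appeared in each genotype taken alone. In controls, control 3 minus the mean of controls 1 and 2 was -2.30 for Notch3, -1.97 for Dll1, -1.21 for Heyl, -1.11 for Hey1 and -0.97 for Hey2. In mutants, mutant 3 minus the mean of mutants 1 and 2 was -1.30, -1.60, -1.32, -1.29 and -0.19 for the same genes. With a single pair of libraries from litter 2, effects of the litter, the animals and the cut of the tissue cannot be told apart.

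Marker lists of several cell types were set against the same shares of all genes, 20.5% below and 15.0% above litter 1 in both litter 2 libraries. Of the odontoblast list, Dspp, Phex and Nes, 3 of 5 genes, were below all litter 1 libraries in both litter 2 libraries: Dspp, which encodes the main dentin matrix phosphoprotein, was at 817 and 113 RPM in control 3 and mutant 3 and between 4032 and 6872 RPM in litter 1. The other 2 of that list, Dmp1 and Smpd3, had litter changes of 1.80 and 1.15. The summed odontoblast list was 1764 RPM in control 3 and 479 RPM in mutant 3, against 5063 to 8214 RPM in litter 1. All 5 erythroid genes lay above litter 1 in both, summing to 2521 and 773 RPM against 230 to 587 RPM. Of the 11 enamel epithelium genes, 3 (Krt5, Krt14 and Cdh1) lay above litter 1 in both litter 2 libraries, and the list's median litter change was 1.90, while Mmp20 and Klk4 had litter changes of -1.18 and -0.14. Of the 8 dental mesenchyme genes, 1 (Msx1, litter change -1.16) lay below litter 1 in both and 0 above, with a median litter change of 0.01 for the list, a count no higher than the share of all genes gives. Of the 4 macrophage and osteoclast genes in the table, 1 (Csf1r, -0.93) lay below and 0 above, while Acp5 had a litter change of 0.53. The part of these cell types in the litter difference of the Notch genes was not tested.

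Vascular markers gave mixed values. Of the 8 tested mural genes, 0 lay below and 3 above litter 1 in both litter 2 libraries. The pericyte genes Rgs5, Kcnj8 and Abcc9 stood lowest in control 3, at 91.0, 30.5 and 34.6 RPM, while mutant 3 was within their litter 1 range at 200, 58.3 and 55.6 RPM. Cspg4, also known as a pericyte gene, went the other way, at 66.9 and 71.2 RPM in control 3 and mutant 3 against 31.8 to 48.8 RPM in litter 1. The contractile genes Acta2 (51.1 and 44.3 RPM) and Tagln (46.0 and 33.1 RPM) were higher in control 3 and mutant 3 than in litter 1, where they reached 32.3 and 22.9 RPM. The summed mural list was 388 and 604 RPM in litter 2 and 478 to 714 RPM in litter 1; Des, one of its members, stayed under 1 RPM. Among 7 endothelial genes, Kdr alone lay below litter 1 in both, no more than the 20.5% of all genes gives, and the list summed to 319 and 339 RPM against 262 to 408 RPM.

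The order of Jag2 over the 6 libraries, from mutant 1 at 111 RPM through control 3, mutant 3, control 1 and mutant 2 to control 2 at 35.1 RPM, was that of the mean log2(RPM + 1) level of the enamel list, which ran from 9.60 to 5.92. The same order held for 61 of the 14444 genes tested, 0.422%. The level of Amelx, the main enamel matrix gene, ran from 876 RPM in control 2 to 23480 RPM in mutant 1. This likeness of order was noticed in the data and was not tested.

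**Figure D3:**
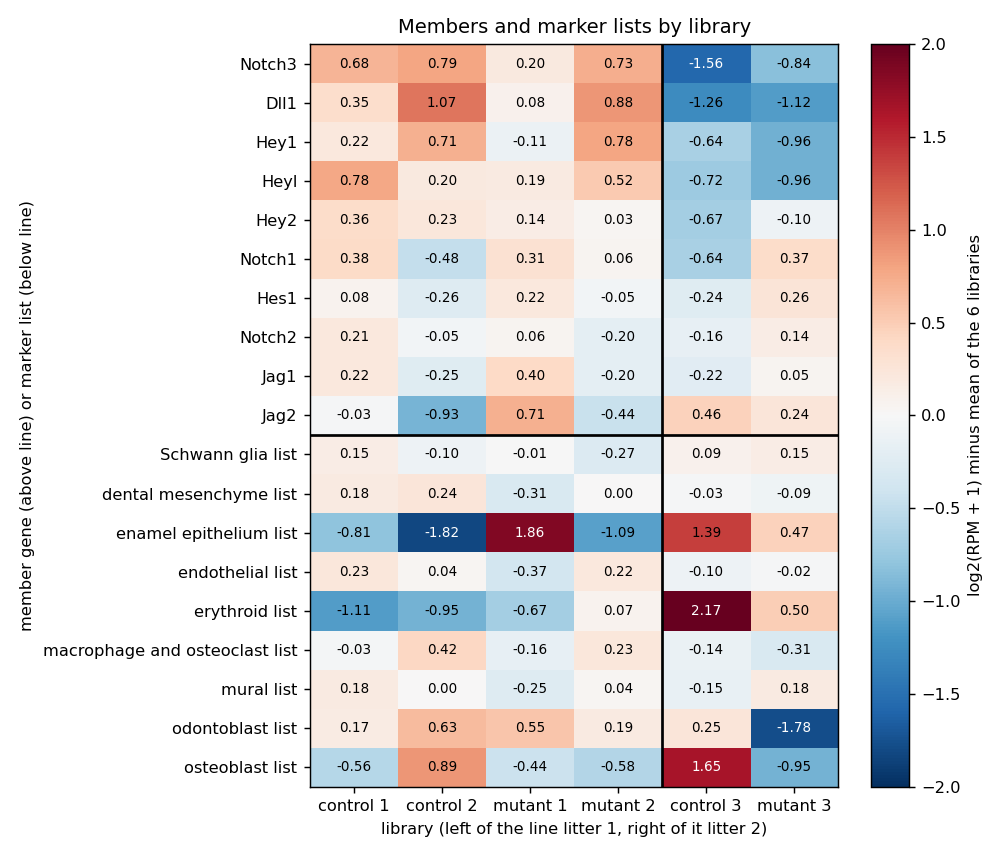
Log2(RPM + 1) of each member (rows above the line) and mean of each marker list (rows below it), minus the mean of the 6 libraries (columns; litter 2 to the right of the line). Notch3, Dll1, Hey1, Heyl and Hey2 are below their mean in both litter 2 libraries, and Jag2 has the order of the enamel epithelium list.

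The 3 members of largest spread, Dll1, Notch3 and Hey1, had an SD of log2(RPM + 1) over the 6 libraries of 0.99, 0.98 and 0.71, larger than that of 97.9%, 97.8% and 94.2% of tested genes. Notch2, at 0.17, exceeded 28.2% of genes. Most like Dll1 by Pearson's r over the 6 libraries were Adcy6, Pnpla7 and Gatsl2 (r of 0.998 each), and 633 tested genes reached an r of 0.95 with it. For Notch3 these were Golga1, Ypel3 and Znfx1 (r from 0.996 to 0.999), with 618 genes at 0.95. For Hey1 they were A730081D07Rik, Ccdc74a and Gm15522 (r of 0.998 each), with 315 genes at 0.95. With so many alike genes over 6 libraries, the top names describe a shared pattern of levels and no more.

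The rest of the pathway gave the setting for the members. Of 43 further Notch pathway genes listed, 40 reached the level for testing, and 0 had an unadjusted p under 0.05 by genotype; 20 were higher and 20 lower, with a median change of -0.0028. The groups did not overlap for 1 of the 40 (1.67% of all genes lower in this way), Neurl1a, which encodes a ubiquitin ligase acting on ligands: 6.19, 6.23 and 6.81 RPM in controls and at 3.52, 5.89 and 5.32 RPM in mutants. Its change was -0.35 (SE 0.21, unadjusted p 0.143 by limma). Rbpj, the DNA-binding partner of all Notch receptors, was at 45.0, 50.3 and 49.4 RPM in controls and at 41.4, 45.0 and 47.1 RPM in mutants, a change of -0.11. Control 1 overlapped the mutants.

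Notch4, the endothelial receptor, was at 23.9, 21.2 and 15.0 RPM in controls and at 13.6, 17.1 and 19.4 RPM in mutants, a change of -0.24. Dll4, the main endothelial ligand, was at 23.9, 25.8 and 9.64 RPM in controls and at 18.6, 29.3 and 10.8 RPM in mutants, a change of -0.01. Like Dll1 it was lowest in litter 2 in both genotypes, with a litter change of -1.16 (SE 0.20, adjusted p 0.0616 by limma). Nrarp, a feedback inhibitor and direct Notch target, was at 43.0, 23.3 and 29.0 RPM in controls and at 36.3, 31.9 and 34.7 RPM in mutants, a change of 0.15. Hes5, a target prominent in neural tissue, was nearly absent, from 15 reads in control 1 (0.494 RPM) to 2 reads in mutant 3, below the level of 3 reads. Hes5, Dll3 and Dlk2 averaged under 1 RPM and were not tested. Dll3 had 0 reads in 3 libraries, while Dlk2 ranged from 3 reads in mutant 2 to 76 reads in control 3.

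By role, the 9 tested genes of receptor cleavage had genotype changes between -0.22 and 0.52, the upper end being Furin, named here after its value was seen. The 7 genes of the nuclear complex and its corepressors lay between -0.11 and 0.09, the narrowest span of these lists. The 9 genes of ligand endocytosis and receptor glycosylation ran from -0.35 to 0.29 and the 7 of receptor turnover from -0.18 to 0.15. By litter, 6 of the 40 pathway genes had an unadjusted p under 0.05 and were lower in litter 2 (13.7% of all genes) and 1 was higher (7.21%). The 6 were Dll4, Mib1, Mib2, Adam10, Itch and Dtx3, and the 1 higher was Dner; 0 of the 40 passed adjustment by limma. None of the 7 nuclear genes and none of the 4 other targets was among them.

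**Figure D4:**
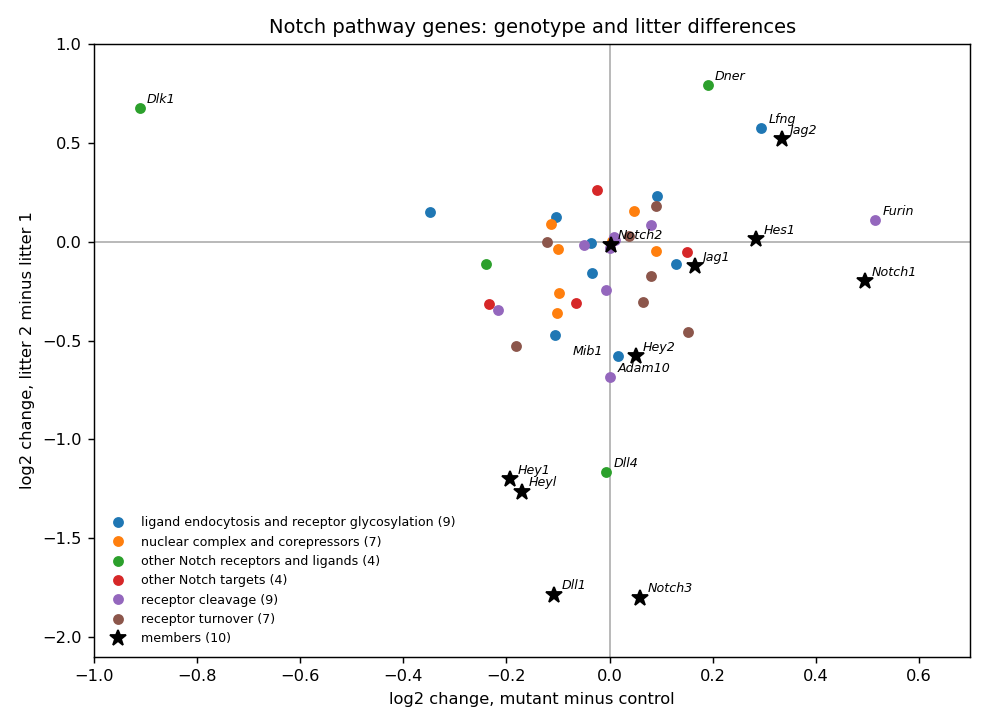
Log2 change by genotype (horizontal axis) against log2 change by litter (vertical axis) for the 10 members (stars) and 40 other tested Notch pathway genes (dots, coloured by role). Dll1, Notch3, Heyl, Hey1 and Dll4 form the low end by litter, from -1.80 to -1.16, with genotype changes between -0.19 and 0.06.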

How the data were processed

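RNA-seq was analysed in 6 libraries grouped by the genotype labels. The authors deposited 1 table titled as normalized RPKM with log2 values; TopHat2 and mm10 appear in the submitters' processing notes, and the counter and annotation are not given in the sources used here. Raised as powers of 2, 100% of the values above a column's minimum were whole multiples of 1 step per column (tolerance 0.0001), shared by all genes, showing no division by gene length; the minimum was taken as 0.9 of 1 read, meaning no reads. Values were therefore read as log2 RPM, an inference from the step. The test was planned for RPKM and was applied to RPM.

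Genes averaging 1 RPM or more over the libraries were fitted on log2(RPM + 1) with limma 3.58.1 (R 4.3.3; lmFit, eBayes with trend, two-sided, Benjamini-Hochberg over 14444 genes), which understates changes of low genes. The fit was tested on simulated data. The members and lists were chosen with earlier results of these data known. Named were the members, pathway genes with an unadjusted p under 0.05 by genotype or no overlap, Notch4, Dll4, Rbpj, Hes5 and Nrarp, and the 3 genes most like each of the 3 most variable members. The litter fit and its alternatives were added later. Replicate numbers come from the column names. Same-numbered libraries were not taken as pairs, since the correlation of their departures from group means was -0.03, 0.75 and 0.50 for numbers 1, 2 and 3. The labels do not say whether a library is 1 animal or a pool, so p-values measure the spread between these samples. No 2 libraries agreed within counting error; the smallest chi-square per degree of freedom was 23.2. Floors in reads cover counting error only. Lengths are from GENCODE M21 principal transcripts, promoters from RefSeq GRCm38.p6. Figures used matplotlib 3.10.9.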

Additional observations from a re-analysis of the deposited data

Results flagged for a closer look

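For 6 of the 50 tested Notch genes the genotypes separated in litter 1 and the pair from litter 2 differed in the other direction, as for 18.2% of all tested genes. The difference between litters was tested with a litter-by-genotype term in limma, which 0 of the 14444 genes passed after adjustment and 5.06% had at an unadjusted p under 0.05. Litter 2 has 1 library per genotype.

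Of the members, Hey2 changed by -0.21 in litter 1 and 0.57 in litter 2, a difference of 0.78 (unadjusted p 0.0984 by limma). Among the other pathway genes, Dlk1, a non-canonical ligand, was at 22.02 and 27.8 RPM in the litter 1 controls and 6.11 and 11.6 RPM in the litter 1 mutants, but at 22.7 RPM in control 3 and 25.3 RPM in mutant 3. Its difference between litters was 1.59 (unadjusted p 0.0235, adjusted p 0.868 by limma). The difference was 0.88 for Notch4 (unadjusted p 0.0399 by limma), -1.24 for Dner (0.0319), 0.53 for Maml1 (0.0882) and 0.45 for Numbl (0.118). Of the members, Notch3 had the smallest unadjusted p for this term, 0.0344 by limma, with a difference of 1.00, but its litter 1 groups overlapped.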

How the results depend on the processing

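No member passed adjustment by genotype under any of the 18 alternatives, and Notch1, Hes1 and Jag1 stayed higher in mutants in all 18. Directions reversed with the enamel list as a covariate for Dll1 (0.33), Hey1 (0.12), Heyl (0.038) and Notch2 (-0.0056). With that covariate the Jag2 change kept its direction at 0.0098 (SE 0.17), against 0.33 in the reported fit. In litter 1 alone, directions reversed for Hey2 (-0.21), Notch2 (-0.15) and Notch3 (-0.27). The cause of these differences was not tested. With each library left out in turn, changes ran from -0.76 to 0.43 for Dll1, -0.63 to 0.24 for Hey1, -0.57 to 0.27 for Heyl, -0.046 to 0.65 for Jag2, -0.078 to 0.11 for Notch2, -0.27 to 0.24 for Hey2, -0.71 to 0.49 for Notch3, 0.30 to 0.81 for Notch1, 0.23 to 0.39 for Hes1 and 0.0099 (without mutant 1) to 0.32 for Jag1. The count of members with an unadjusted p under 0.05 then ran from 0 to 1, of genes passing adjustment from 0 to 1, and of genes with an unadjusted p under 0.05, 152 in the reported fit, from 68 to 325. That count was 344 with no filter, 292 with litter as a block, 353 with the enamel covariate, 319 in litter 1 alone and 524 with the replicate block. Under the replicate block 0 members had an unadjusted p under 0.05 (smallest 0.0584, Notch1), and 4 of 6 libraries correlated best with their own number. A mean of at least 5 RPM left Hey2 untested.

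By litter, Notch3, Dll1, Hey1, Hey2 and Heyl kept their direction throughout. The 126 genes passing adjustment became 2 with no filter, 0 with median-of-ratios scaling, voom or the enamel covariate and 1 with upper-quartile scaling, and ran from 0 to 371 with a library left out; the count at an unadjusted p under 0.05, 3026, then ran from 1393 to 4248. In the reported fit 1985 genes were lower and 1041 higher in litter 2 at an unadjusted p under 0.05 by limma. These counts were 2116 and 1894 with median-of-ratios scaling and 2139 and 1744 with upper-quartile scaling. The count of members passing, 1, was 2 with pseudocounts of 0.1 and 0.5 and with a mean of at least 5, where Heyl passed at -1.31, -1.29 and -1.26. It was 0 with no filter (Notch3 -1.80), median-of-ratios (-1.76) and upper-quartile scaling (-1.76), no trend (-1.80), voom (-1.81) and the enamel covariate (-1.47), and 0 to 2 with a library left out. Leaving out control 3 or mutant 3 leaves litter 2 with 1 library, assumed to vary like the others. Over all 6 fits with a library left out, changes ran from -2.30 to -1.30 for Notch3, -1.98 to -1.60 for Dll1, -1.40 to -1.15 for Heyl, -0.24 to 0.21 for Notch2, -0.97 to -0.19 for Hey2, -1.38 to -0.996 for Hey1, -0.59 to 0.19 for Notch1 and -0.15 to 0.18 for Hes1. Litter reversals elsewhere were Notch2 under median-of-ratios (0.033), upper-quartile (0.024) and voom (0.0062), and Hes1 (-0.040) and Jag2 (-0.039) with the enamel covariate. The genotype change of Jag1, litter 2 minus litter 1, reversed to -0.063 under median-of-ratios scaling. The same difference ran from 0.78 to 1.04 for Notch3 and from 0.63 to 1.18 for Hey2 over the alternatives in pseudocount, filter, scaling and fit. Not all of these kept the Notch3 term under an unadjusted p of 0.05 by limma. One read in the shallowest library, mutant 3, is worth 0.0419 RPM; Dll3, Dlk2 and Hes5 averaged under 1 RPM.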
